A study of Homo sapiens with 9 samples.

Results

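The insulin-like growth factor 2 (IGF2) axis was followed in Hap1 cells that live on a wild-type or a variant copy of SARS2, the mitochondrial seryl-tRNA synthetase. It was taken as 10 genes picked by name: the ligand gene IGF2, the neighbouring noncoding gene H19, the receptors IGF1R, IGF2R and INSR, the binding proteins IGFBP2 and IGFBP4, and the mRNA-binding proteins IGF2BP1, IGF2BP2 and IGF2BP3. They were 10 of 78894 genes in the deposited tables, and each of the 10 passed the filter on low counts, as did 16908 genes in all. The 10 names were listed with earlier results of these libraries in view and with no threshold, and which values weighed in the choice is not recorded. All comparisons between the genotypes are therefore treated as already seen. The adjusted p-values below say where each gene stood in a fit of the whole table, as a description, and support nothing beyond that.

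Hap1 cells are human, hold most chromosomes in 1 copy and were established from chronic myeloid leukaemia cells. The groups were R227Q, H448L and WT, named for the SARS2 version they carried, with 3 libraries each of poly-A RNA. In every group the endogenous SARS2 gene carried a deletion, a FLAG-tagged SARS2 copy sat under doxycycline control, a constitutive myc-tagged copy (int14 in the labels, not explained there) was of the named genotype, and doxycycline had been left out for 6 days. Neither separate cultures nor the number of clones behind a group is stated in the labels, so p-values reflect how far these libraries scatter, and that scatter may be technical.

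IGF2 is a secreted growth factor that is abundant in fetal tissue and in many tumours and is made from an imprinted locus that it shares with H19. It signals through the tyrosine kinase receptors IGF1R and INSR, while IGF2R, the mannose 6-phosphate receptor, takes it up for degradation, and IGFBP proteins hold it outside the cell. IGF2BP proteins, named for their binding to IGF2 mRNA, are fetal RNA-binding proteins that stabilise or localise many mRNAs and are known targets of the let-7 microRNAs.

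Because let-7 links the mRNA-binding members, its sequence is shown with the sites that match it. The let-7 family and miR-98 have the same seed (bases 2 to 8, in capitals), and H19 is the host gene of miR-675, whose 2 mature forms have other seeds. Mature sequences are from RefSeq (GRCh38.p14), 5′ to 3′, and none of these mature microRNAs was analysed here.
hsa-let-7a-5p: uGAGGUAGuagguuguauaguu
hsa-let-7d-5p: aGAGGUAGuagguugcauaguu
hsa-let-7g-5p: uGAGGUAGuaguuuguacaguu
hsa-miR-98-5p: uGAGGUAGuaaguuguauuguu
hsa-miR-675-5p: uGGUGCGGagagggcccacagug
hsa-miR-675-3p: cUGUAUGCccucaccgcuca

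The letters CTACCTC, the exact match to that seed on the sense strand, were searched in the 3′ UTR of the longest coding transcript of each gene (GENCODE v29). They occurred 4 times in IGF2BP1, whose 3′ UTR was 6206 bases long, and once each in IGF2BP2 and IGF2BP3. IGF1R held 2 matches, IGF2R and INSR 1 each, and IGF2, IGFBP2 and IGFBP4 none. Of 18857 genes with a 3′ UTR of at least 30 bases, 1812 (9.61%) held the letters, and a longer 3′ UTR has more room for them. Below are the matches in the mRNA-binding members, 5′ to 3′ with the 7 matching bases in capitals (GRCh38 coordinates). A match is a description of the letters and not a tested site.
IGF2BP1, chr17:49051060-49051089, plus strand: ctgtgtgcgaagtaaaCTACCTCaaggtat
IGF2BP1, chr17:49053697-49053726, plus strand: ccagcagtgctagtaaCTACCTCacagagc
IGF2BP1, chr17:49054351-49054380, plus strand: agtataaatggattaaCTACCTCaatcctt
IGF2BP1, chr17:49054996-49055025, plus strand: ttcacttttgttttatCTACCTCttagcaa
IGF2BP2, chr3:185644214-185644243, minus strand: aaacacacagaagaagCTACCTCaggtgtt
IGF2BP3, chr7:23311789-23311818, minus strand: gtgcatttttactcaaCTACCTCaggtatt

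The libraries came from 2 submissions to the sequencing service, named in the column names. SDKYMR held R227Q 1, WT 1 and WT 2, and 4LJFHN held R227Q 2, R227Q 3, the 3 H448L libraries and WT 3. Total counts were 11262316 to 12349129 for R227Q, 9900892 to 11229588 for H448L and 11055106 to 12991050 for WT, so 1 count stood for 0.077 to 0.101 CPM (counts scaled to library size). Of the 16908 genes tested, 43.8% differed between submissions, 20.8% higher and 23% lower in 4LJFHN, so the fits behind the values below carried a submission term except where stated. SARS2 was at 7.09 to 8.68 CPM in R227Q, 7.88 to 8.68 CPM in H448L and 6.20 to 8.54 CPM in WT, and the tables do not separate its copies. In H448L its fitted difference from WT was 0.28 ± 0.15 and in R227Q 0.18 ± 0.12 (log2 fold change ± SE, edgeR adjusted p = 0.29 and 0.38). Of 7 haematopoietic markers 2 averaged over 1 CPM, of 8 fibroblast markers 5, of 5 epithelial markers 3, and of 4 hepatic markers, listed because liver secretes IGF proteins, 0 did. Their summed levels ran from 5.46 to 20.4 CPM in R227Q, 20.1 to 24.7 CPM in H448L and 5.55 to 21.0 CPM in WT for the haematopoietic list. The fibroblast sums were 33.4 to 74.5, 64.2 to 76.1 and 30.1 to 64.8 CPM, the epithelial sums 84.8 to 92.2, 79.2 to 89.8 and 78.0 to 81.5 CPM, and the hepatic sums 0.888 to 1.21, 1.20 to 1.25 and 0.452 to 1.08 CPM, in the same order. The haematopoietic and fibroblast sums split by submission, and every H448L library was in 4LJFHN. HBG1, most of the haematopoietic sum in 4LJFHN, had 0 CPM in each SDKYMR library and 12.9969 to 19.9437 CPM in 4LJFHN. COL1A1 had 18.4 to 22.8 CPM in SDKYMR and 42.9 to 54.96 CPM in 4LJFHN. COL1A2 had 0.155 to 0.385 CPM in SDKYMR and 5.34 to 10.2 CPM in 4LJFHN. KIT, PDGFRA and THY1 overlapped between submissions. No marker in these lists was at 0 in all 9 libraries. Of 5 fibroblast markers tested 2 rose and 1 fell in R227Q and 1 fell in H448L, of 3 epithelial markers 1 rose in R227Q, and neither haematopoietic marker tested was called by edgeR. Beside these counts, 7.5% of all genes were called higher and 9.91% lower in R227Q, and 2.97% and 4.99% in H448L. The part of the markers in the results below was not tested. In bulk RNA, fewer cells of a type and less RNA per cell cannot be told apart.

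Against WT, the ligand stood out among the 10 genes: IGF2 was 2.38-fold higher in R227Q cells and 1.78-fold higher in H448L cells, with 3 libraries per group. IGFBP2 was 1.13-fold higher and IGF2BP2 was 1.21-fold lower in R227Q cells. H19, the 3 receptors, IGFBP4, IGF2BP1 and IGF2BP3 did not pass the test in either variant. For R227Q against WT 2 members were higher, 1 was lower and 7 did not pass, where 17.4% of all genes were called (7.5% higher and 9.91% lower). For H448L against WT 1 was higher and 9 did not pass, where 7.97% were called (2.97% higher and 4.99% lower). The median log2 fold change of the members was 0.06 in R227Q and 0.03 in H448L, beside 0.00 and 0.01 over all genes tested. Both comparisons use the same WT libraries. Every H448L library was in 4LJFHN, so WT 1 and WT 2 bore on the H448L comparison only through the shift between submissions. That shift was estimated from the R227Q and WT libraries and assumed equal in all groups. Without WT 3, which is the only WT library in 4LJFHN, the counts of members called were 1 for R227Q and 0 for H448L, and without H448L 3 the H448L count was 2.

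**Figure D1:**
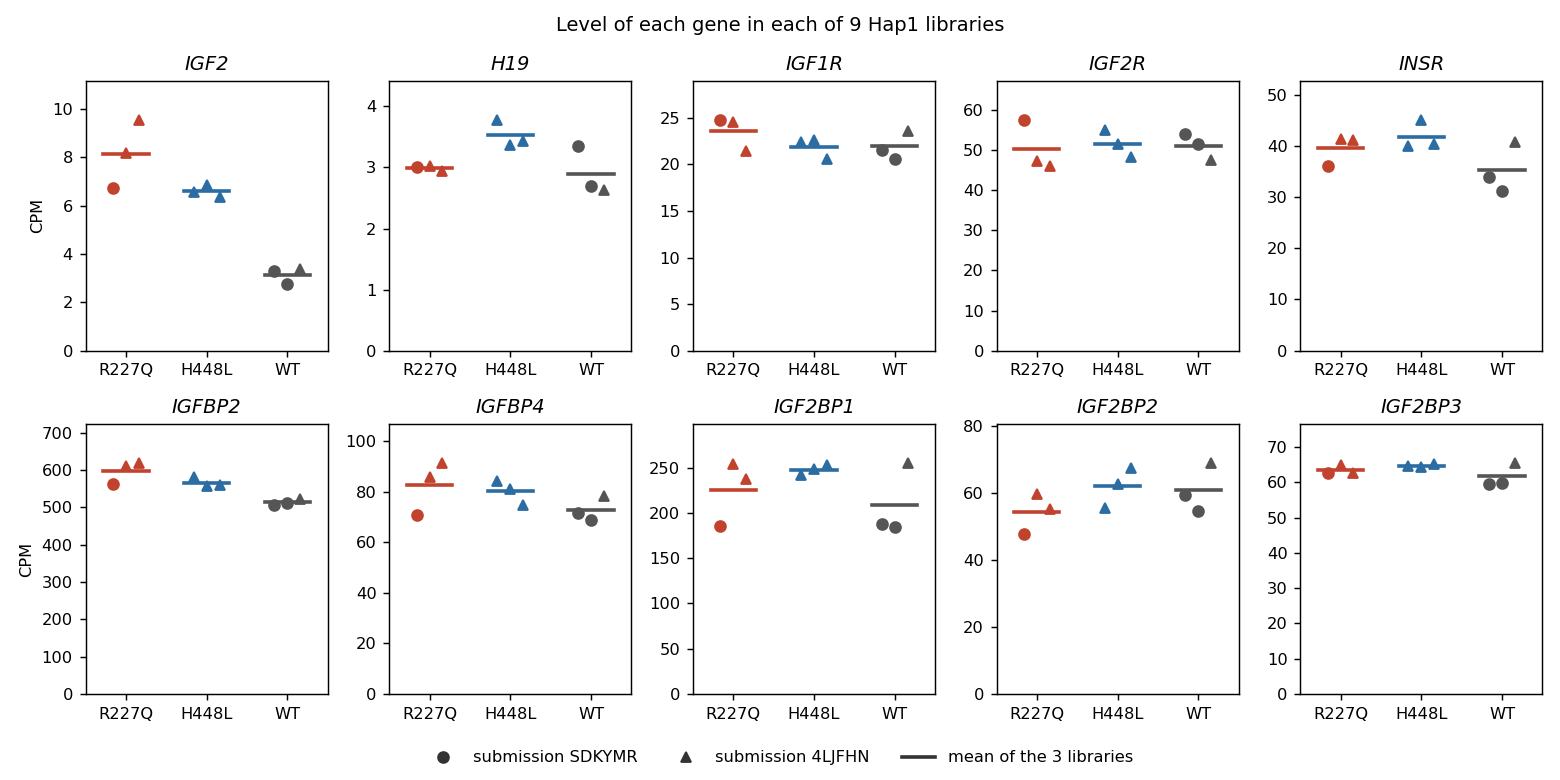
Level of each of the 10 genes (y axis, CPM, linear from 0, own scale per panel) in the R227Q, H448L and WT libraries, with circles for submission SDKYMR, triangles for 4LJFHN and a bar at the mean of 3 libraries. For IGF2 the R227Q (6.72 to 9.57 CPM) and H448L (6.36 to 6.86 CPM) points lie above the WT points (2.74 to 3.36 CPM), while the IGF2BP1 points split by submission.

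IGF2 (ENSG00000167244, GRCh38 chromosome 11, 2129112 to 2149603, minus strand) had 6.72, 8.20 and 9.57 CPM in R227Q 1 to 3, 6.57, 6.86 and 6.36 CPM in H448L 1 to 3, and 3.28, 2.74 and 3.36 CPM in WT 1 to 3. Every library of either variant was above every WT library, and the R227Q and H448L ranges overlapped. Over all genes, 1 group lay wholly above the other for 19.2% (R227Q and WT) and 31.5% (H448L and WT). The means were 8.16 ± 1.42 CPM in R227Q, 6.60 ± 0.25 CPM in H448L and 3.13 ± 0.34 CPM in WT (± SD, n = 3 each). These levels rest on few reads, with 82.5 to 118.17 counts in R227Q, 63 to 74.33 in H448L and 35.33 to 42.67 in WT. Relative to WT, IGF2 had a log2 fold change of 1.25 ± 0.15 (SE) in R227Q and 0.84 ± 0.18 in H448L (edgeR adjusted p = 7.6e-07 and 0.0032). R227Q differed from WT by 1.10 inside SDKYMR and by 1.35 inside 4LJFHN, where H448L differed from WT by 0.92. The H448L call was lost without WT 3 (0.69, edgeR adjusted p = 0.20, range over the libraries left out 0.0022 to 0.20). In DESeq2 the H448L value was 0.84, but its adjusted p was not given because the gene fell under that tool's own filter on means.

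The IGF2 row does not hold all reads of the locus. INS-IGF2 (ENSG00000129965), a readthrough gene of the insulin and IGF2 genes, overlaps it by 17066 bases, and ENSG00000284779, which has no name in the tables and is called IGF2 in GENCODE v29, overlaps all 20492 bases of IGF2, both on the same strand. In the GENCODE transcripts, 79.5% of the words of 50 bases in INS-IGF2 and 87.9% of those in ENSG00000284779 also occurred in IGF2. The deposited counts of these rows were fractions, such as 27.33 for ENSG00000284779 in R227Q 2. INS-IGF2 was at 0.977, 2.34 and 2.24 CPM in R227Q, 1.81, 1.69 and 1.82 CPM in H448L, and 0.436, 0.492 and 0.965 CPM in WT. ENSG00000284779 followed it closely, at 1.02, 2.43 and 2.24 CPM in R227Q, 1.85, 1.74 and 1.82 CPM in H448L, and 0.436, 0.530 and 1.01 CPM in WT. Insulin itself (INS) had 0 counts in each of the 9 libraries, and the antisense gene IGF2-AS had 1 count in H448L 1 and H448L 3 and 0 elsewhere.

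Summed over the 3 overlapping genes, the locus stood at 8.72, 12.96 and 14.05 CPM in R227Q 1 to 3, 10.24, 10.29 and 9.999 CPM in H448L 1 to 3, and 4.16, 3.77 and 5.34 CPM in WT 1 to 3. The share of these counts outside the IGF2 row was 21.0% to 27.1% in SDKYMR libraries and 31.9% to 37.0% in 4LJFHN libraries, so how reads were divided moved with the submission. The sum gave a log2 fold change of 1.23 ± 0.13 in R227Q and 0.82 ± 0.15 in H448L (edgeR adjusted p = 2.5e-08 and 3.8e-04, with 7.6e-07 and 0.0032 for the IGF2 row alone). That sum was chosen after the shared reads had been seen. The sum with INS-IGF2 alone gave 1.24 and 0.83. Gene counts do not say which of the IGF2 promoters was used.

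**Figure D2:**
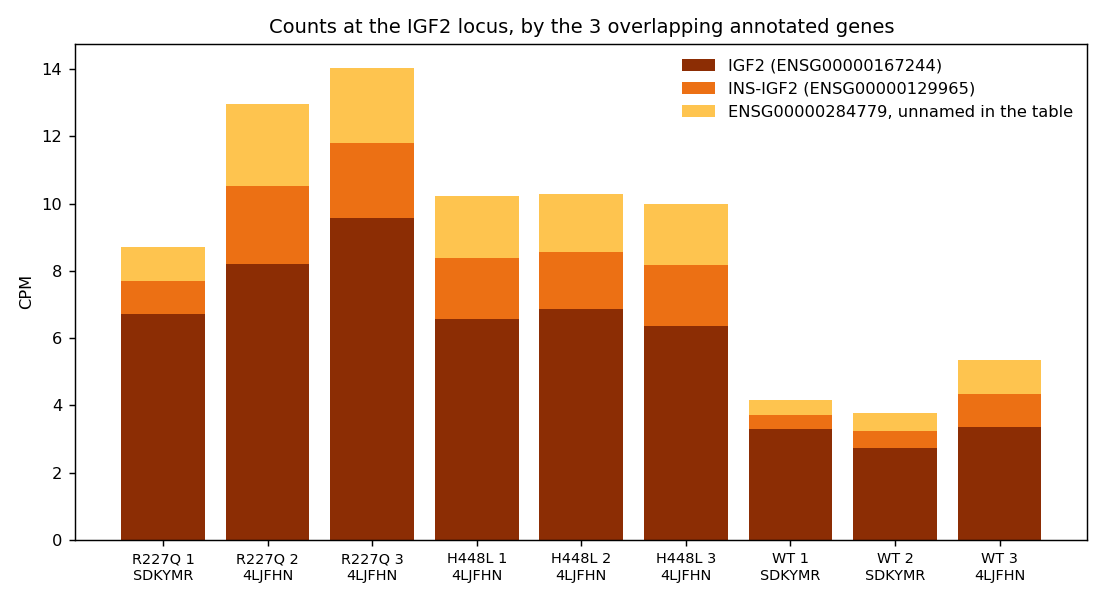
Stacked bars of the level (CPM, linear from 0) that the tables assign to IGF2, INS-IGF2 and ENSG00000284779 in each library, with the submission under its name. The bars of R227Q (8.72 to 14.05 CPM) and H448L (9.999 to 10.29 CPM) stand above those of WT (3.77 to 5.34 CPM). The 2 upper segments make up a larger share of the bar in 4LJFHN libraries.

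H19 (ENSG00000130600, chromosome 11, 1995176 to 2001470, minus strand), a noncoding RNA expressed from the maternal allele in tissues where IGF2 comes from the paternal one, did not pass the test in either variant. It was at 3.01, 3.02 and 2.94 CPM in R227Q 1 to 3, 3.78, 3.37 and 3.43 CPM in H448L 1 to 3, and 3.35, 2.70 and 2.62 CPM in WT 1 to 3. The R227Q libraries lay inside the WT range, and the H448L libraries lay just above it, as one group lay above or below the other for 31.5% of all genes in that comparison. The log2 fold change was 0.06 ± 0.19 in R227Q and 0.32 ± 0.22 in H448L (edgeR adjusted p = 0.89 and 0.48). These levels rest on few reads, at 29 to 43.5 counts per library. What size of difference could be detected at that depth was not tested.

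The receptors were close to WT in both variants. IGF1R (ENSG00000140443, chromosome 15, 98648539 to 98964530, plus strand), the main signalling receptor for IGF2, had 24.8, 24.6 and 21.5 CPM in R227Q, 22.4, 22.6 and 20.6 CPM in H448L, and 21.6, 20.6 and 23.6 CPM in WT. Its ranges overlapped in all 3 groups. Its log2 fold change was 0.09 ± 0.08 in R227Q and −0.03 ± 0.10 in H448L (edgeR adjusted p = 0.50 and 0.89). INSR (ENSG00000171105, chromosome 19, 7112255 to 7294034, minus strand), the insulin receptor, which also binds IGF2, had 36.1, 41.4 and 41.1 CPM in R227Q, 40.0, 45.1 and 40.3 CPM in H448L, and 33.9, 31.1 and 40.8 CPM in WT. The WT library of 4LJFHN was as high as the variants, and the SDKYMR libraries were the 3 lowest. With the submission term its log2 fold change was 0.07 ± 0.07 in R227Q and 0.06 ± 0.08 in H448L (edgeR adjusted p = 0.53 and 0.73).

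IGF2R (ENSG00000197081, chromosome 6, 159969099 to 160113507, plus strand), the clearance receptor, had 57.5, 47.2 and 45.9 CPM in R227Q, 54.9, 51.4 and 48.3 CPM in H448L, and 54.1, 51.4 and 47.4 CPM in WT. All 3 ranges overlapped, and the 4LJFHN library was the lowest of WT while the SDKYMR library was the highest of R227Q. Its log2 fold change was 0.05 ± 0.06 in R227Q and 0.16 ± 0.07 in H448L (edgeR adjusted p = 0.66 and 0.20), values that turned to −0.047 and −0.041 without the submission term. IGF2R overlaps the antisense gene AIRN by 4374 bases, and IGF1R overlaps 2 antisense genes. The sources used here do not say whether counting used strand, so antisense reads may be part of these levels.

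Of the binding proteins, IGFBP2 rose and IGFBP4 did not pass the test. IGFBP2 (ENSG00000115457, chromosome 2, 216632828 to 216664436, plus strand), a secreted carrier of IGF2 in fetal tissue and serum, had 562, 611 and 619 CPM in R227Q, 582, 557 and 560 CPM in H448L, and 507, 511 and 522 CPM in WT. Every variant library was above every WT library. Groups were apart in this way for 19.2% of all genes (R227Q and WT) and 31.5% (H448L and WT). The IGFBP2 means were 598 ± 31 CPM in R227Q, 566 ± 13 CPM in H448L and 513 ± 8.0 CPM in WT (± SD, n = 3 each). It rose by a log2 fold change of 0.18 ± 0.04 in R227Q (edgeR adjusted p = 0.0011), and the value in H448L was 0.06 ± 0.04 (edgeR adjusted p = 0.44). R227Q lay above WT by 0.13 inside SDKYMR and by 0.23 inside 4LJFHN, where H448L lay above WT by 0.10. The R227Q call was lost without WT 3 (0.13, edgeR adjusted p = 0.17, range over the libraries left out 2.0e-04 to 0.17) and without the submission term (0.19).

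IGFBP4 (ENSG00000141753, chromosome 17, 40443461 to 40457731, plus strand), a binding protein that holds IGFs back from their receptor until it is cleaved, had 70.7, 85.9 and 91.4 CPM in R227Q, 84.2, 81.2 and 74.8 CPM in H448L, and 71.6, 68.7 and 78.2 CPM in WT. The ranges overlapped, and the SDKYMR libraries were the 3 lowest. Its log2 fold change was 0.09 ± 0.06 in R227Q and −0.04 ± 0.07 in H448L (edgeR adjusted p = 0.31 and 0.77).

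**Figure D3:**
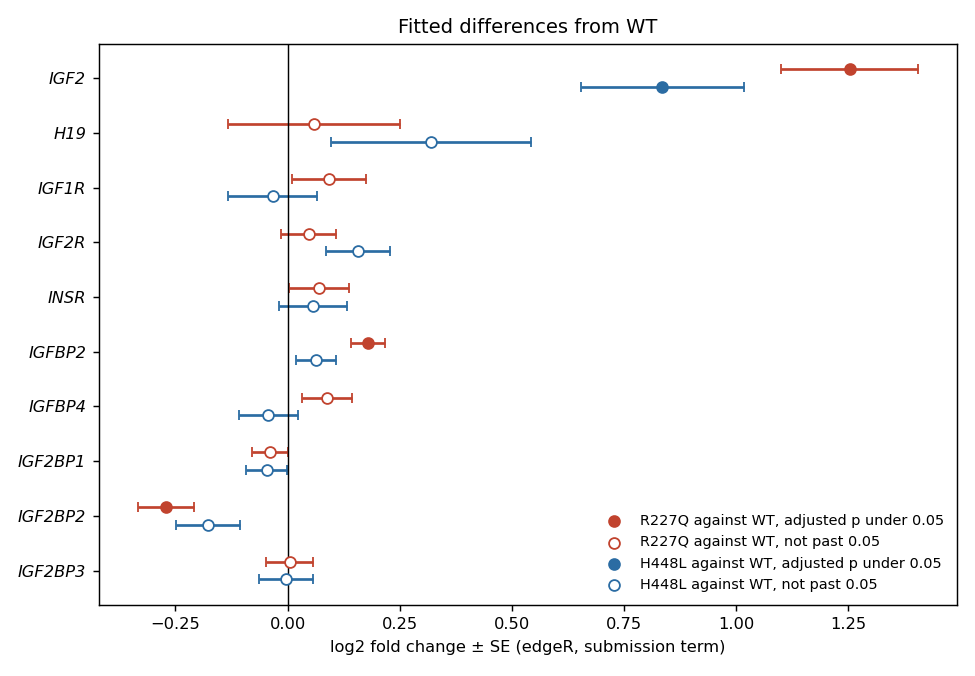
Log2 fold change against WT (x axis, ± SE from the edgeR fit with the submission term) of each gene for R227Q (red) and H448L (blue), filled where the adjusted p was under 0.05. IGF2 lies at 1.25 and 0.84, IGFBP2 at 0.18 in R227Q, IGF2BP2 at −0.27 in R227Q, and the open points lie between −0.18 and 0.32.

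Among the mRNA-binding proteins only IGF2BP2 passed the test, and in R227Q. IGF2BP2 (ENSG00000073792, chromosome 3, 185643739 to 185825056, minus strand), the family member that adult tissues keep, had 47.8, 59.7 and 55.2 CPM in R227Q, 55.7, 62.9 and 67.6 CPM in H448L, and 59.6, 54.6 and 69.1 CPM in WT. The ranges overlapped across submissions. Within SDKYMR the R227Q library was below both WT libraries, and within 4LJFHN each variant library was below the WT library. Set against WT, R227Q stood at −0.26 inside SDKYMR and −0.28 inside 4LJFHN, where H448L stood at −0.18. Its log2 fold change was −0.27 ± 0.06 in R227Q (edgeR adjusted p = 0.0024) and −0.18 ± 0.07 in H448L (edgeR adjusted p = 0.13). The R227Q call was lost without WT 3 (−0.27, edgeR adjusted p = 0.086) or R227Q 1 (−0.28, 0.054), in 4LJFHN alone (−0.28, 0.052) and without the submission term (−0.20, 0.35), and the H448L value passed without H448L 3 (−0.24, 0.035). Over the libraries left out, the adjusted p ranged from 6.8e-04 to 0.086 in R227Q and from 0.035 to 0.58 in H448L.

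IGF2BP1 (ENSG00000159217, chromosome 17, 48997412 to 49055650, plus strand), which binds ACTB, MYC and IGF2 mRNAs, had 186, 254 and 237 CPM in R227Q, 242, 248 and 253 CPM in H448L, and 187, 184 and 255 CPM in WT. The 3 SDKYMR libraries, of R227Q and WT alike, were at 184 to 187 CPM, and the 4LJFHN libraries of all genotypes were at 237 CPM or more. The log2 fold change of IGF2BP1 was −0.04 ± 0.04 in R227Q and −0.05 ± 0.05 in H448L (edgeR adjusted p = 0.57 and 0.62), and these turned to 0.085 and 0.19 without the submission term. Between submissions it differed by 0.38 ± 0.04 (4LJFHN over SDKYMR, edgeR adjusted p = 5.4e-09).

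IGF2BP3 (ENSG00000136231, chromosome 7, 23310209 to 23470467, minus strand), an oncofetal member of the family, had overlapping ranges in the 3 groups. It was at 62.7, 64.9 and 62.6 CPM in R227Q, 64.6, 64.2 and 65.1 CPM in H448L, and 59.6, 59.9 and 65.6 CPM in WT. The fitted log2 fold change was 0.00 ± 0.05 in R227Q and −0.00 ± 0.06 in H448L (edgeR adjusted p = 0.97 and 0.98). IGF2BP1, IGF2BP2 and IGF2BP3 shared 0 words of 50 bases between their GENCODE transcripts, as did IGF1R with INSR and IGFBP2 with IGFBP4, so no exact read of that length is common to these paralogs. IGF2BP1 and IGF2BP2 overlap antisense genes, and IGF2BP3 overlaps MALSU1 on the opposite strand by 1521 bases, so their counts are uncertain to that extent.

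The promoters of the other 2 members called, IGFBP2 and IGF2BP2, are shown because they moved in opposite directions in R227Q. Each is a RefSeq window of 300 bases around an annotated start, most of them before it (GRCh38.p14), and capitals mark GGGCGG on either strand. Of the 10 members, 8 had an entry, and IGF2 and IGF2BP1 had none. IGFBP2 had 3 entries and IGF2BP2 had 2, and the one with the most CG pairs is given for each.
IGFBP2, chr2:216633170-216633469, plus strand: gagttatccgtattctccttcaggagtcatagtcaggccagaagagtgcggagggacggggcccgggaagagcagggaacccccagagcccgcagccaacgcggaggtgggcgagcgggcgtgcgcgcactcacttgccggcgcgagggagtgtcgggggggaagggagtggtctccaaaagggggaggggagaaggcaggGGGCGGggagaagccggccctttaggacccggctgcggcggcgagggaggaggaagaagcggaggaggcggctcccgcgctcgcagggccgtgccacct
IGF2BP2, chr3:185824993-185825292, minus strand: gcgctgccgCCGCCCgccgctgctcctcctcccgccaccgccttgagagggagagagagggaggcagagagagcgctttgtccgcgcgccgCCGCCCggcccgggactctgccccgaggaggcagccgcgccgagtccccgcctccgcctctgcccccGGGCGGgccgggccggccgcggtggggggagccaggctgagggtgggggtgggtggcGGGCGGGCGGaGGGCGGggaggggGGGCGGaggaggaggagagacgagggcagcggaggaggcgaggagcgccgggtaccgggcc

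The IGFBP2 window held 28 CG pairs and 1 match to GGGCGG, and the IGF2BP2 window 38 CG pairs and 7 matches, some of which overlap each other. Over 35116 RefSeq promoter windows of 300 bases the median was 14 CG pairs, and GGGCGG occurred in 45.0% of them. The printed windows were picked for their CG pairs, so their place against that median is partly set by the choice. The other IGFBP2 entries had 8 and 6 CG pairs. Neither printed window held TATAAA, found in 11.5% of all windows. Neither held TGATGNAA, the core of an element bound by ATF4 and found in 3.62% of all windows. The second IGF2BP2 entry, chr3:185821093-185821392 on the minus strand, had 3 CG pairs, 1 TGATGNAA and 1 TATAAA. Each motif was searched on both strands.

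Between the variants no member passed the edgeR test, where 0.207% of all genes were called (0.0828% higher and 0.124% lower in H448L). Of the 10 genes 0 were called by edgeR or limma-voom. DESeq2 called 0 of the 2 to which it gave an adjusted p (IGFBP2 and IGF2BP1) and gave none to the other 8. In edgeR 3 had an unadjusted p under 0.05 (IGF2, IGFBP2 and IGFBP4). IGF2 differed by −0.42 ± 0.13 in H448L over R227Q (edgeR adjusted p = 0.19), IGFBP2 by −0.12 ± 0.04 (0.21) and IGFBP4 by −0.13 ± 0.06 (0.37). Within 4LJFHN these differences were −0.43, −0.13 and −0.16. H19 lay higher in every H448L library than in every R227Q library (0.26 ± 0.19, edgeR adjusted p = 0.72), where groups were apart in this way for 13.3% of all genes.

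The R227Q difference was then compared between submissions. It had the same sign in both for 6 members, IGF2, INSR, IGFBP2, IGFBP4, IGF2BP1 and IGF2BP2, and the signs differed for H19, IGF1R, IGF2R and IGF2BP3. INSR (0.0036 in 4LJFHN), IGFBP4 (9.3e-04 in SDKYMR) and IGF2BP1 (−0.0091 in SDKYMR) were near 0, so their shared sign says little. An interaction of R227Q with the submission was called for 0 of 10 members by edgeR, DESeq2 and limma-voom, 0 had an unadjusted p under 0.05 in edgeR, and 0% of all genes were called. With 1 R227Q library in SDKYMR and 1 WT library in 4LJFHN this comparison was weak, with an SE of 0.32 for IGF2. Levels themselves differed between submissions for 5 of 10 members, IGF2BP1, IGF2BP2, IGFBP4 and INSR higher in 4LJFHN and IGF2R lower, against 43.8% of all genes. That count was 3 without WT 3 or without R227Q 1.

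**Figure D4:**
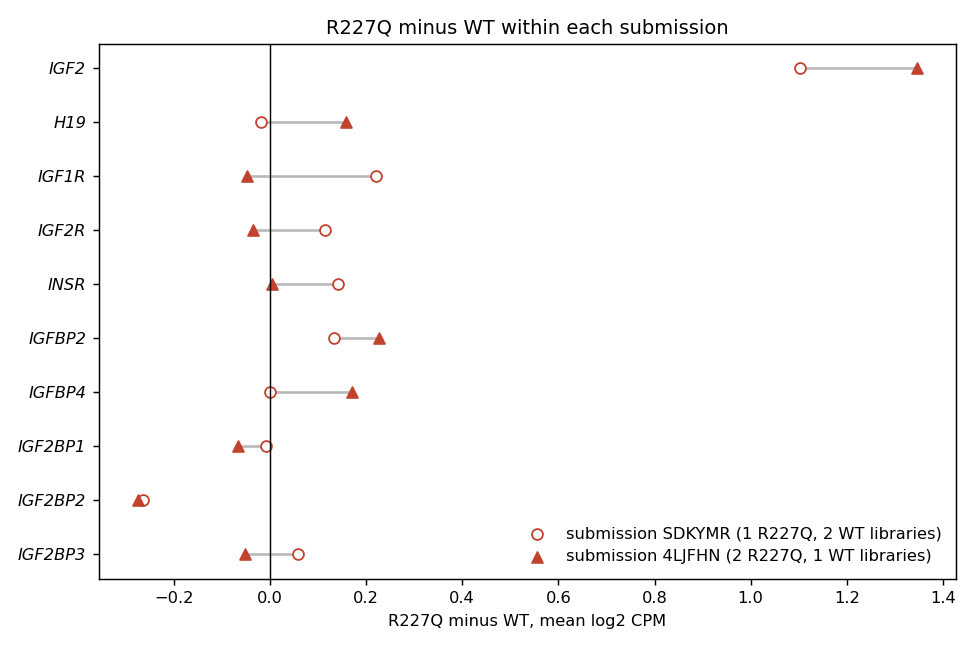
R227Q minus WT in mean log2 CPM (x axis) for each gene within submission SDKYMR (open circles, 1 R227Q and 2 WT libraries) and 4LJFHN (filled triangles, 2 R227Q and 1 WT libraries). IGF2 lies at 1.10 and 1.35 and IGF2BP2 at −0.26 and −0.28, while IGF1R lies at 0.22 and −0.05, on either side of 0.

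The other genes of the axis were read from lists by role, chosen with earlier results of these data known. Of 82 listed, 70 passed the filter. In R227Q 8 were higher, 7 were lower and 55 did not pass (21.4% called, against 17.4% of all genes). In H448L 4 were higher, 4 were lower and 62 did not pass (11.4%, against 7.97%). The R227Q count of 15 was 5 without WT 3 and 9 without R227Q 1, and the H448L count of 8 was 2 without WT 3.

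Over all genes tested, 7.5% were called higher in R227Q and 2.97% in H448L, with median log2 fold changes of 0.00 and 0.01. Among the other ligands, binding proteins and proteases, 2 of 8 tested rose in R227Q and 0 fell (median log2 fold change 0.09), and 1 rose in H448L and 0 fell (median 0.20). They were INS-IGF2, described above, and STC2, stanniocalcin 2, a secreted inhibitor of the protease PAPPA that cleaves IGFBP4. STC2 had 57.3, 62.7 and 72.1 CPM in R227Q, 66.2, 60.8 and 55.9 CPM in H448L, and 43.4, 44.5 and 48.2 CPM in WT. Every variant library was above every WT library, as groups were apart for 19.2% of all genes (R227Q and WT) and 31.5% (H448L and WT). The log2 fold change of STC2 was 0.42 ± 0.07 in R227Q and 0.28 ± 0.08 in H448L (edgeR adjusted p = 3.5e-05 and 0.022). The H448L call was lost without WT 3 (0.22) or H448L 1 (0.21), with DESeq2 (0.27) and without the submission term (0.37). INS-IGF2 stood at 1.13 ± 0.30 in R227Q (edgeR adjusted p = 0.011) and did not pass without WT 3 (1.05) or R227Q 1 (1.18). It also failed to pass in 4LJFHN alone (1.18) and without the submission term (1.51). It stood at 0.74 ± 0.34 in H448L (0.24). IGF1, IGFBP1 and IGFALS, the liver-derived parts of the circulating system, averaged at most 0.101 CPM in every group and were not tested.

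Below the receptors, 3 of 28 genes rose and 3 fell in R227Q (median −0.07), and 3 rose and 2 fell in H448L (median −0.03). The shares over all genes were 7.5% higher and 9.91% lower in R227Q, and 2.97% and 4.99% in H448L, with medians of 0.00 and 0.01. INPPL1, the lipid phosphatase SHIP2, rose by 0.31 ± 0.05 in R227Q and 0.29 ± 0.06 in H448L (edgeR adjusted p = 2.8e-05 and 0.0013). It had 94.8, 101 and 93.0 CPM in R227Q, 93.5, 97.5 and 97.4 CPM in H448L, and 74.7, 77.5 and 77.2 CPM in WT. The variants thus lay apart from WT, as 19.2% of all genes did in R227Q and 31.5% in H448L. TSC2, which restrains mTORC1, rose by 0.26 ± 0.07 in R227Q and 0.37 ± 0.09 in H448L (edgeR adjusted p = 0.013 and 0.0064). RHEB, the mTORC1 activator that TSC2 inhibits, stood at −0.16 ± 0.05 in R227Q and −0.27 ± 0.06 in H448L (edgeR adjusted p = 0.035 and 0.0067), and GSK3B, a kinase that AKT inhibits, at −0.20 ± 0.06 in R227Q and −0.23 ± 0.07 in H448L (0.020 and 0.032).

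FOXO3, a transcription factor that AKT keeps out of the nucleus, fell by 0.28 on the log2 scale in R227Q (SE 0.06, edgeR adjusted p = 9.3e-04) and stood at −0.12 ± 0.07 in H448L (0.30). Without WT 3 the R227Q calls of TSC2 (0.18), GSK3B (−0.17) and FOXO3 (−0.25) were lost, and so were the H448L calls of INPPL1 (0.28), TSC2 (0.26) and GSK3B (−0.19). RHEB lost its R227Q call without WT 1 (−0.15), WT 2 (−0.14), R227Q 1 (−0.07) or R227Q 3 (−0.16), and its H448L call without R227Q 1 (−0.22). GSK3B lost its R227Q call also without WT 1 (−0.17) or R227Q 1 (−0.22), and its H448L call without WT 1 (−0.21), R227Q 1 (−0.25) or H448L 2 (−0.20). DESeq2 called neither TSC2 nor RHEB in R227Q, nor GSK3B in either variant. Without the submission term the R227Q calls of TSC2 (0.22), RHEB (−0.34), GSK3B (−0.10) and FOXO3 (−0.23) were lost. So were the H448L calls of INPPL1 (0.27), TSC2 (0.29), RHEB (−0.67) and GSK3B (−0.05). In 4LJFHN alone TSC2 (0.35), RHEB (−0.07) and GSK3B (−0.22) lost their R227Q calls. RHEB (−0.22) and GSK3B (−0.25) lost their H448L calls there.

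Of 12 imprinted genes tested, 2 rose in R227Q and 0 fell (median 0.22), and 0 were called in H448L (median 0.13). Of all genes, 7.5% were called higher and 9.91% lower in R227Q, and 7.97% were called in H448L. The medians over all genes were 0.00 and 0.01. PHLDA2, a placental growth restrainer from the same chromosome arm as IGF2, had 29.8, 25.1 and 27.1 CPM in R227Q, 21.4, 18.2 and 20.4 CPM in H448L, and 17.4, 21.1 and 17.3 CPM in WT. R227Q lay above both other groups, which overlapped. Groups were apart for 19.2% of all genes (R227Q and WT) and 13.3% (H448L and R227Q). PHLDA2 rose by 0.61 ± 0.09 in R227Q over WT (edgeR adjusted p = 6.2e-06) and stood at 0.20 ± 0.11 in H448L over WT (0.27). PHLDA2 lost its R227Q call without the submission term (0.53, edgeR adjusted p = 0.058). It was lower in H448L than in R227Q by −0.40 ± 0.09 (0.039), a call lost without any 1 of WT 1 (−0.39), WT 3 (−0.40), R227Q 1 (−0.40), R227Q 2 (−0.46), R227Q 3 (−0.36), H448L 2 (−0.34) or H448L 3 (−0.42). SLC22A18, its neighbour, rose by 0.40 ± 0.14 in R227Q (0.044), a call lost without WT 1 (0.40), WT 3 (0.19), R227Q 1 (0.59) or R227Q 3 (0.32). That call was also lost with DESeq2 (0.38) or limma-voom (0.39), and without the submission term (0.51).

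None of 6 tested regulators of IGF2 and H19 transcription and none of 9 genes of the let-7 axis was called in either variant by edgeR. Over all genes, 17.4% were called in R227Q and 7.97% in H448L, so counts of 0 in lists this short say little. LIN28B, which blocks let-7 maturation, stood at −0.12 ± 0.09 in R227Q and −0.04 ± 0.11 in H448L (edgeR adjusted p = 0.44 and 0.88), HMGA2, a let-7 target, at −0.03 ± 0.06 and −0.01 ± 0.08 (0.84 and 0.95), and CTCF, the insulator protein of the IGF2 and H19 locus, at −0.12 ± 0.05 and −0.10 ± 0.06 (0.12 and 0.39). These 3 were chosen after their values were seen.

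Of 9 mRNAs known to be bound by IGF2BP proteins, 1 rose and 4 fell in R227Q (median −0.17), and 2 fell in H448L (median −0.10). Over all genes 7.5% were called higher and 9.91% lower in R227Q, 4.99% were called lower in H448L, and the medians were 0.00 and 0.01. ACTB, beta-actin, had 4623, 2043 and 2105 CPM in R227Q, 2069, 2080 and 2051 CPM in H448L, and 5616, 5568 and 2525 CPM in WT. Its level was far lower in 4LJFHN than in SDKYMR, and within each submission the variants were below WT. It fell by 0.29 on the log2 scale in R227Q and 0.31 in H448L (SE 0.03 and 0.04, edgeR adjusted p = 2.9e-07 and 4.1e-06). Without the submission term the ACTB calls were lost (−0.67 in R227Q and −1.21 in H448L, edgeR adjusted p = 0.37 and 0.11). CTNNB1, beta-catenin, stood at −0.18 ± 0.04 in R227Q and −0.26 ± 0.05 in H448L (edgeR adjusted p = 0.0011 and 2.8e-04), and neither value passed once WT 3 was left out (−0.19 and −0.26). CTNNB1 lost these calls also without the submission term (−0.15 and −0.19). SOX2 stood at −0.26 ± 0.07 in R227Q, a call lost without WT 3 (−0.21) and without the submission term (−0.23). MAPK4 stood at 0.63 ± 0.20, lost without WT 2 (0.48), WT 3 (0.55), R227Q 1 (0.74) or R227Q 3 (0.61), and with DESeq2 (0.63). Its call was also lost without the submission term (0.58). CTNNB1 and SOX2 were named after their values were seen. MYC did not pass (0.24 ± 0.15 in R227Q and 0.31 ± 0.20 in H448L, edgeR adjusted p = 0.305 and 0.40).

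**Figure D5:**
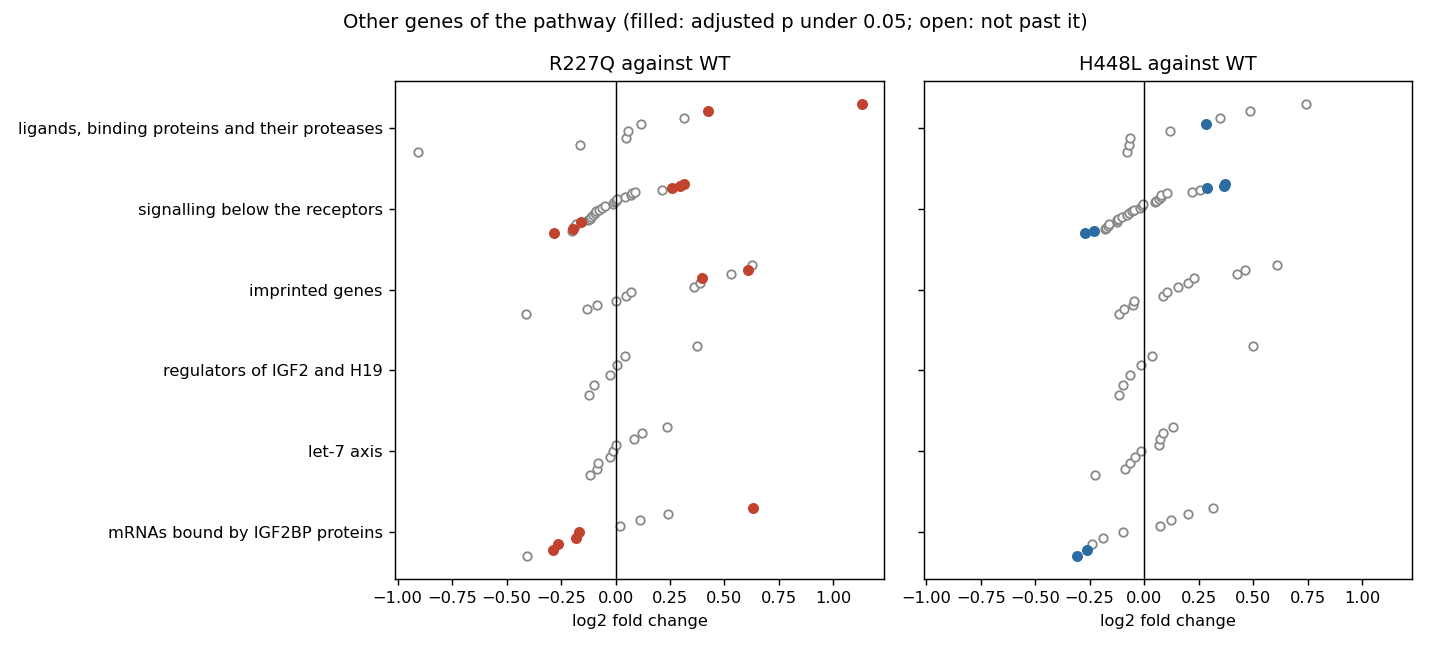
Log2 fold change against WT (x axis) of the other tested genes of the axis, 1 point per gene in rows by list, for R227Q (left) and H448L (right), filled where the adjusted p was under 0.05. Most points lie near 0, with INS-IGF2 at 1.13 and 0.74 and no filled point among the regulators of IGF2 and H19 or the let-7 axis.

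For each member called against WT, the genes with the most similar pattern over the 9 libraries were found among 11131 named genes with a mean of at least 5 CPM, as the smallest root mean square difference in centred log2 CPM with the submission removed and the groups kept. For IGF2 these were AKR1C1 (0.11), HOXB9 (0.14) and NEUROG2 (0.15), against an SD of 0.55 for IGF2 itself. AKR1C1 is an aldo-keto reductase, HOXB9 a homeobox transcription factor and NEUROG2 a neurogenic one. Their log2 fold changes were 1.19, 1.15 and 1.45 in R227Q and 0.92, 0.97 and 1.19 in H448L. For IGFBP2 they were SLC3A2, LAGE3 and CTDSPL2 (0.02, 0.02 and 0.03, with an SD of 0.08 for IGFBP2), and for IGF2BP2 COL4A4, ROCK1 and PAK1IP1 (0.03, 0.03 and 0.04, with an SD of 0.14 for IGF2BP2). All libraries share the fit that removed the submission, and the likeness is a description.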

How the data were processed

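Poly-A RNA of 9 Hap1 libraries was sequenced by a commercial service from cell lysates, per the labels' protocols, with tagmented double-stranded cDNA. Per the submitters' processing notes, the genome build was GRCh38. For the aligner, counting program, annotation release and use of strand, the sources used here give nothing. The authors deposited estimated counts per gene, not normalized, in 1 table per submission, and CPM beside them, per the file headers. Of the counts above 0, 70.4% to 72.5% were whole with no tolerance, and all were rounded. The 92 spike-in entries were left out. Chi-square per degree of freedom between libraries of 1 group was 1.48 to 2.41 within a submission and 20.2 to 21.4 between submissions, so none was a copy.

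Genes were kept by edgeR's filterByExpr, scaled by TMM (factors 0.969 to 1.02) and fitted with group and submission on all 9 libraries. The quasi-likelihood test used a Benjamini-Hochberg adjusted p under 0.05 over all 16908 genes, two-sided. SE is the log2 fold change over the root of F. Within-submission differences use average log2 CPM (prior count 2) and carry no test. Software was DESeq2 1.42.0, edgeR 4.0.16 and limma 3.58.1 in R 4.3.3. Scripts were tested on simulated data. The members, lists and rules were chosen with earlier results of these data known. Pathway genes were named by the called genes with the largest changes per list, up to 3 each way in the first 2 lists and 1 in the rest. Some genes counted in the lists are not reported here by name. Alternatives were DESeq2, limma-voom, other factors and filters, unrounded counts, no submission term, 4LJFHN alone, a replicate block, summed counts at the IGF2 locus, and leaving out each library.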

Additional observations from a re-analysis of the deposited data

How the results depend on the processing

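The R227Q rise of IGF2 kept its direction and call under every alternative run (log2 fold change 1.13 to 1.40 without single libraries), and so did the direction of IGF2 in H448L (0.69 to 0.96). Without single libraries the counts of all genes called ran from 1093 to 3262 (R227Q against WT), 253 to 1378 (H448L against WT) and 4 to 91 (H448L against R227Q), beside 2944, 1347 and 35 with all. They were 1557, 694 and 54 with DESeq2, 312, 147 and 1 without the submission term, and the first 2 were 1138 and 734 in 4LJFHN alone. The last was 122 over every gene with a count. Calls of other pathway genes, 15, 8 and 1 with all libraries, ran from 5 to 15, 2 to 10 and 0 to 1. They were 2, 1 and 0 without the submission term, 8 for R227Q with DESeq2 and in 4LJFHN alone, and 0 for H448L against R227Q with DESeq2 or the replicate block. Member calls ran from 1 to 3 (R227Q), 0 to 2 (H448L) and 3 to 5 (between submissions), with 1 for R227Q without the submission term, 0 for H448L with DESeq2 (where 2 of 10 had no adjusted p), and 2 between submissions with the replicate block. Of the calls for R227Q against WT, 43.1% were higher, against 54.0% with upper-quartile factors and 32.4% with DESeq2, and for H448L 37.3%, against 47.2% and 23.1%.

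Members near 0 changed sign, and none of these values passed the test. Against WT in R227Q, IGF2BP3 was −0.0059 with DESeq2, −0.0056 with RLE factors and −0.054 in 4LJFHN alone, where IGF1R was −0.051 and IGF2R −0.037. Without the submission term IGF2R was −0.047 and IGF2BP1 0.085. In H448L IGF2BP3 was 0.015 with upper-quartile factors and 0.013 without the submission term, where IGF2R was −0.041, IGFBP4 0.083 and IGF2BP1 0.19. IGFBP4 was 0.013 in 4LJFHN alone. In H448L against R227Q, INSR, IGF2BP1 and IGF2BP3 were 0.053, 0.11 and 0.00054 without the submission term, and 0.0072, 0.0011 and 0.0099 in 4LJFHN alone. Without single libraries the R227Q ranges were −0.053 to 0.058 for IGF2BP3, −0.031 to 0.17 for H19, −0.00084 to 0.17 for IGFBP4, −0.050 to 0.22 for IGF1R and −0.036 to 0.11 for IGF2R. The H448L ranges were −0.13 to 0.14 for IGF1R, −0.00072 to 0.095 for IGFBP2, −0.042 to 0.068 for IGF2BP3 and −0.16 to 0.015 for IGFBP4. Against R227Q, the H448L ranges were −0.072 to 0.012 for INSR, −0.046 to 0.012 for IGF2BP1 and −0.036 to 0.011 for IGF2BP3. The cause of these changes was not tested.

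Residual correlations of same-numbered libraries of different groups ran from −0.40 to 0.12. The fit of group and submission fixes some of these correlations, such as that of WT 3 with R227Q 1 (1). They therefore cannot show whether replicate numbers pair the libraries. With the replicate block IGF2 was 1.25 in R227Q and 0.83 in H448L, and member calls against WT were 3 and 1, as without it. The H448L calls of STC2 (0.24) and GSK3B (−0.25) against WT and the call of PHLDA2 between variants (−0.38) were lost under the block. The interaction could not be fitted without WT 3 or R227Q 1. IGF2 and H19 had the fewest counts of the members, at 29 to 118.17 per library.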
